A study of Mus musculus with 14 samples.

Results

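TREM2 is a surface receptor of microglia, which are macrophages that reside in the brain, and 7 genes of its activating pathway were followed here among the 24421 entries of the deposited expression table. They were chosen by gene symbol: the receptor Trem2, its adaptors Tyrobp (DAP12) and Hcst (DAP10), the kinase gene Syk, the downstream genes Plcg2 and Vav2, and the relative Treml2. All 7 of 7 symbols were found, and all 7 passed the filter of a mean of at least 10 normalized counts. TREM2 binds lipids, lipoproteins and other ligands and has almost no signalling tail of its own. It pairs with TYROBP, whose tyrosine motif (ITAM) is phosphorylated by Src family kinases and then recruits SYK. SYK passes the signal to phospholipase C gamma 2, to Vav exchange factors and to PI3 kinase, which HCST also recruits. In microglia this pathway is known for phagocytosis, survival and the response to damaged lipids and amyloid, and inhibitory receptors such as CD22 can oppose ITAM signalling.

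The samples were microglia of C57BL/6 mice aged 18 months, sorted as about 20000 live CD11b+ CD45lo cells each from the hemisphere away from the cannula. Pumps had delivered either an IgG control antibody or an antibody blocking CD22 into the cerebrospinal fluid for 1 month, with 7 libraries per group. All mice of both groups carried a pump and received an antibody, and no genetic change is given in the labels. The labels do not say that each library came from a separate mouse, so p-values speak only for the spread among these 14 libraries, which may be technical. Recovered reads ranged from 20221836 to 38101421 per library in the 13 libraries where they were counted. The target gene Cd22 stood at 1469 ± 279 normalized counts under IgG and 1481 ± 184 under anti-CD22 (SD, n = 7 each). All 7 of 7 microglia markers were present, with summed levels of 1257648 to 1463150 normalized counts with IgG and 1282043 to 1434065 with anti-CD22. Marker sums of neutrophils differed most between libraries, from 3.34 to 53460.6 with IgG and from 0 to 10131 with anti-CD22.

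Trem2 lies on chromosome 17 from 48346401 to 48354147 on the plus strand of GRCm38, the assembly also called mm10. Treml2 lies from 48299498 to 48312533 on the same strand, with B430306N03Rik between them. Of the 7 members, 5 had promoter windows in the RefSeq table of GRCm38.p6 (6 windows, since Syk had a pair). Each window spans 250 bases before to 50 bases after a transcript start. Both strands were searched for TGANTCA, where N is any base, a loose form of the AP-1 pattern. They were also searched for GAGGAAG, a pattern bound by the myeloid factor PU.1. Only 1 of the 6 windows, that of Trem2, held either pattern. Of all 32851 promoter windows of this length, 7.81% hold the first pattern and 13.6% the second. The Trem2 window is shown because this receptor is the member the results below turn on. It is chr17:48346151-48346450, plus strand, and capitals mark both matches, which begin 41 bases (PU.1 pattern, reverse strand) and 9 bases (AP-1 pattern) before the start. A match is a description of the letters and not a binding site.
Trem2 promoter: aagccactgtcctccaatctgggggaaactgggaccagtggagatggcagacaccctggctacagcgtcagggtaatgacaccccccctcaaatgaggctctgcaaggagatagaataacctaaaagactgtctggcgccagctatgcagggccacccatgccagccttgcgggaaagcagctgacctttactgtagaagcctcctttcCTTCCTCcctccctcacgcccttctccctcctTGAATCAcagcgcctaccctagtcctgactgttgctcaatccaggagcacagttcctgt

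Levels of different genes were compared per kilobase of transcript. The longest annotated Trem2 transcript, of 4784 bases, keeps an intron, while the longest protein-coding one has 1088 bases. For the other 6 members the longest transcript is also protein-coding. Per kilobase of the longest protein-coding transcript, Trem2 was highest, at 54128 ± 4331 normalized counts per kilobase under IgG and 47459.7 ± 7559 under anti-CD22 (SD, n = 7 each). Tyrobp followed at 28408 ± 3068 with IgG and 25180.5 ± 3270.3 with anti-CD22. By the longest transcript of any kind Trem2 would stand at 12310.1 ± 985 with IgG, below Tyrobp, so the order of receptor and adaptor rests on the transcript chosen. The deposited table gives genes and not transcripts, and which transcript was present was not tested.

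The signalling genes were far lower than the receptor and its adaptor on this per-length scale. Plcg2 came next, at 1919 ± 183 normalized counts per kilobase with IgG, followed by Syk at 411 ± 75.8 and Vav2 at 309.9 ± 61.6. Hcst stood at 276 ± 96.4 and Treml2 was lowest, at 45.9 ± 13.7. The intervals of mean ± SD overlapped for the neighbours Syk and Vav2 and for Vav2 and Hcst. The same order of all 7 genes was found with anti-CD22, where Syk had 507 ± 66.9 and Vav2 371 ± 71.2.

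**Figure D1:**
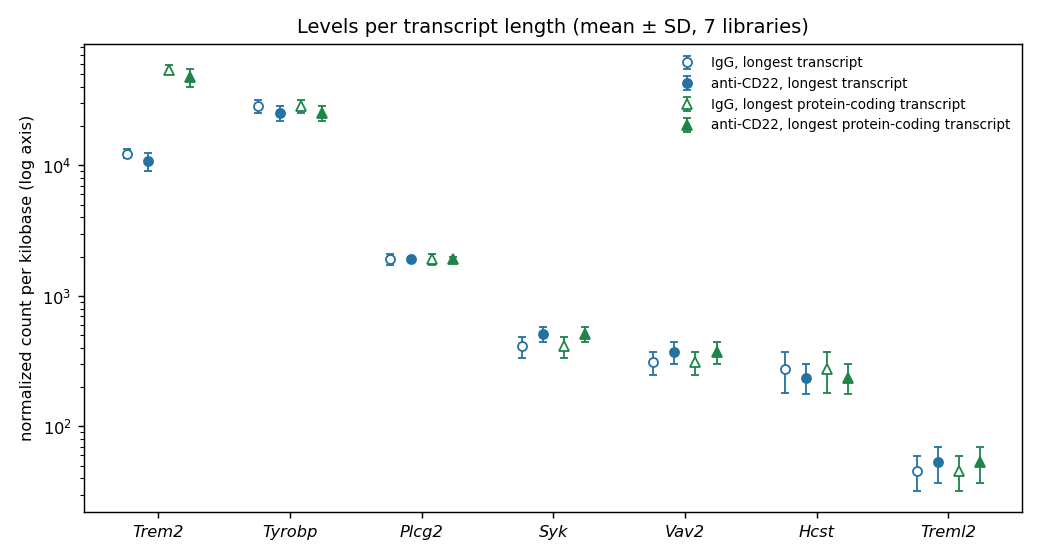
Normalized counts per kilobase on a log axis for the 7 members, as mean ± SD of 7 libraries per group, with open symbols for IgG and filled ones for anti-CD22. Circles use the longest annotated transcript and triangles the longest protein-coding one, and they part only for Trem2 (12310.1 against 54128 with IgG).

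Expression after CD22 blockade was compared with IgG for the receptor and its adaptor first. Trem2 ranged from 51798 to 64717 normalized counts with IgG (median 59529) and from 42157 to 61389 with anti-CD22 (median 54138). Anti-CD22 replicates 1, 2 and 3, at 43638, 42157 and 43679, lay under every IgG library, while replicates 4 to 7, at 54138, 57761, 61389 and 58691, lay within the IgG range. The group means were 58891 ± 4712.5 (SD, n = 7) and 51636 ± 8224 (SD, n = 7), a log2 fold change of -0.20 (SE 0.085, 95% interval -0.38 to -0.02). It did not pass limma's test across all 11646 genes (adjusted p = 0.348, unadjusted p = 0.0274), and 6 of 7 treated libraries lay under the IgG median.

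Tyrobp, which carries the ITAM, lies on chromosome 7 from 30413760 to 30417585. It ranged from 14443 to 20293 normalized counts with IgG (median 16835) and from 12225 to 18121 with anti-CD22 (median 15034). Anti-CD22 replicates 1 and 2, at 13160 and 12225, were the only libraries under the IgG range, and replicate 3, at 14905, was inside it. The means were 16959.6 ± 1831 (SD, n = 7) and 15033 ± 1952 (SD, n = 7), and the log2 fold change was -0.18 (SE 0.081, limma adjusted p = 0.374, unadjusted p = 0.0405), with 6 of 7 treated libraries under the IgG median. The groups overlapped for both genes.

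**Figure D2:**
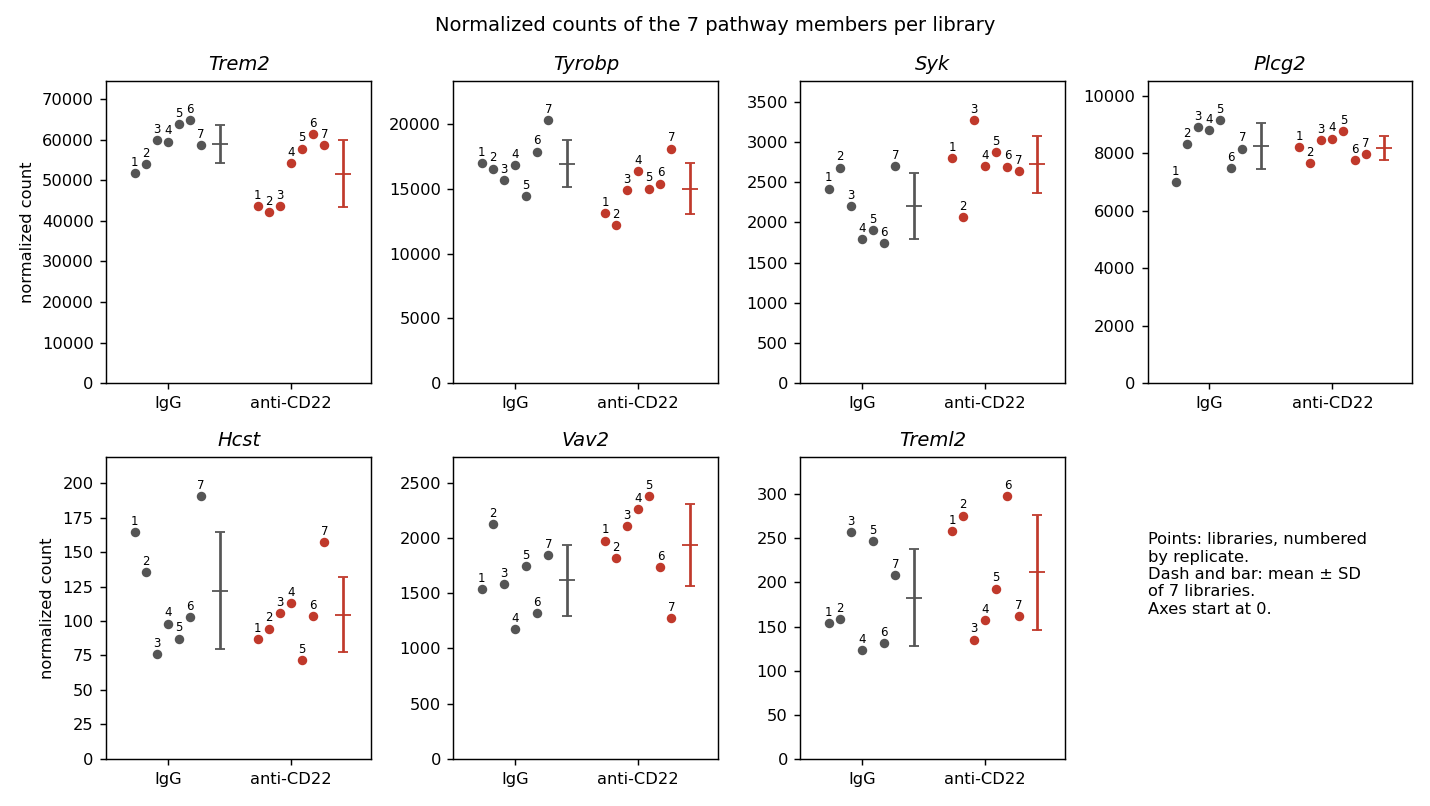
Normalized counts of each member in the 14 libraries, numbered by replicate, with mean ± SD of 7 libraries beside them. The low Trem2 values of anti-CD22 replicates 1, 2 and 3 (42157 to 43679) stand apart from the other 11 libraries, whereas the Syk values of these replicates spread from 2060 to 3266, the highest of all libraries.

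The libraries with low Trem2 also differed from the rest across the whole transcriptome. In each library, the level of every gene relative to its mean over libraries was ranked against the GC content of its longest protein-coding transcript. Spearman's correlation, across genes, was -0.33, -0.42 and -0.38 in anti-CD22 replicates 1, 2 and 3, and between -0.01 and 0.29 in the other 11 libraries. With transcript length the same 3 libraries had correlations of 0.33, 0.30 and 0.34, against -0.28 to 0.15 in the others. Transcripts rich in GC or short were thus relatively scarce in the 3 libraries. The labels name no batch that would set these libraries apart.

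Trem2 and Tyrobp were recomputed with this trend in view. Without the 3 libraries, the 4 remaining anti-CD22 libraries averaged 57995 ± 2996 normalized counts of Trem2 (SD, n = 4), and its log2 fold change was -0.02 (SE 0.062, 95% interval -0.15 to 0.11, limma adjusted p = 0.998). Tyrobp stood at -0.06 (SE 0.079, adjusted p = 0.996). The 3 libraries held the lowest Trem2 values of all libraries, so leaving them out by itself makes the Trem2 difference smaller. After removal of that trend from every library by protein-coding transcripts, the log2 fold change of Trem2 was -0.06 (SE 0.067, limma adjusted p = 0.847) and that of Tyrobp was -0.05 (SE 0.050). By the longest transcript of any kind, Trem2 had -0.26 (SE 0.10, limma adjusted p = 0.472), and that intron-bearing form places the gene among long transcripts. The part of the trend in the Trem2 and Tyrobp values was not tested beyond these recomputations. In these sorted cells, fewer cells expressing a gene and less RNA per cell cannot be told apart.

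**Figure D3:**
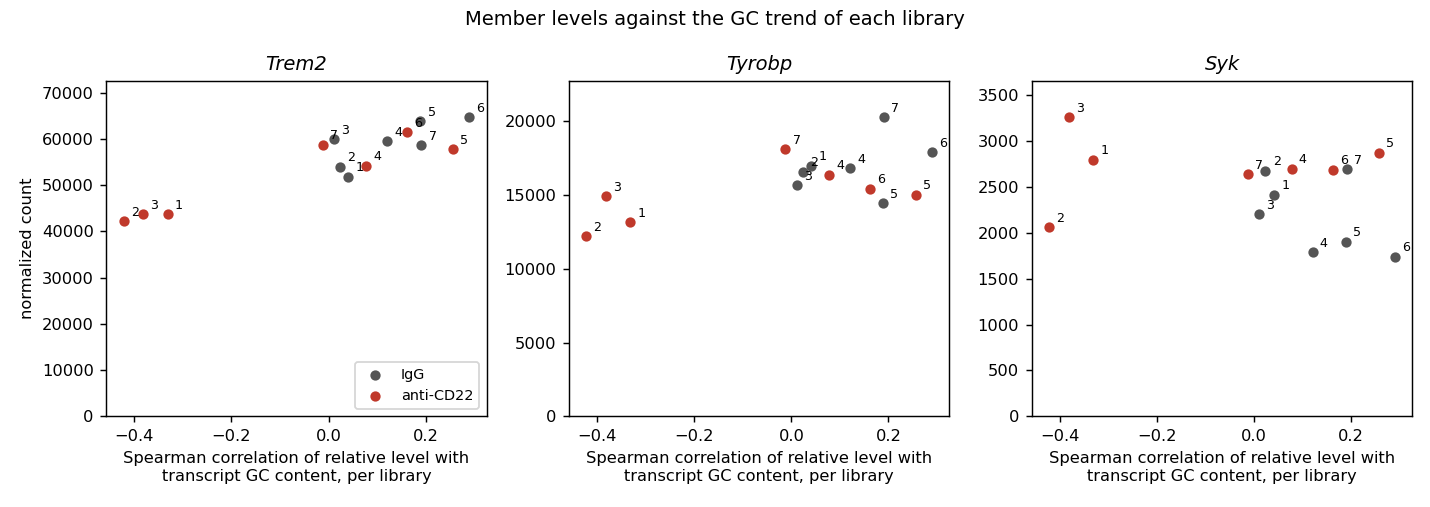
Normalized counts of Trem2, Tyrobp and Syk in each library against Spearman's correlation, across genes, between relative level and GC content of the longest protein-coding transcript. Anti-CD22 replicates 1, 2 and 3 lie at a correlation of -0.42 to -0.33 with the lowest Trem2 values, and the other 11 libraries at -0.01 to 0.29.

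Hcst encodes DAP10, the adaptor that recruits PI3 kinase, and lies next to Tyrobp. The genes point towards each other, with 126 bases between the end of Tyrobp and that of Hcst (30417712 to 30419854, minus strand). Hcst ranged from 76.2 to 191 normalized counts with IgG (median 103) and from 71.5 to 157 with anti-CD22 (median 103). IgG replicates 1 and 7 were high, at 164 and 191, and so was anti-CD22 replicate 7, at 157. The log2 fold change was -0.19 with a wide 95% interval of -0.68 to 0.31 (limma adjusted p = 0.768). It was -0.04 after removal of the trend by coding transcripts, -0.07 without IgG replicate 7 and -0.29 without anti-CD22 replicate 7. Recovered reads of Hcst numbered 77 to 181 per library, so that counting alone gives a coefficient of variation of 7.43% to 11.4%, against 34.9% measured with IgG. Its normalized counts were 0.475% to 0.966% of those of Tyrobp, and the sources used here do not say that strand was used in counting. How many Hcst reads ran on from the Tyrobp end was not tested. T and NK cells also express Hcst. Of their markers, Cd3e, Cd3g, Cd2, Ncr1 and Gzma were at 0 in every library, while Cd3d, Cd8a, Lck, Nkg7 and Klrb1c were above 0 in some. The sum of 10 T and NK markers reached 42.8 normalized counts at most, and Lck alone reached 35.9 with IgG. How much Hcst came from such cells was not tested.

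Syk, the kinase that docks on the phosphorylated ITAM, had the smallest p of the 7 members (chromosome 13: 52583173 to 52648792). It ranged from 1743 to 2698 normalized counts with IgG (median 2205) and from 2060 to 3266 with anti-CD22 (median 2701). IgG replicates 4, 5 and 6 were low, at 1788, 1903 and 1743, and anti-CD22 replicate 2, at 2060, was the 1 treated library under the IgG median. The means were 2205 ± 407 (SD, n = 7) and 2719 ± 359 (SD, n = 7), which is 1.24-fold higher (log2 fold change 0.31, SE 0.11, 95% interval 0.08 to 0.54). This did not pass limma's test across all genes (adjusted p = 0.289, unadjusted p = 0.0111), and its p ranked 438th among all genes tested. The value was 0.33 without anti-CD22 replicates 1, 2 and 3 and 0.25 with the length and GC trend removed by protein-coding transcripts. Its size was thus much the same without these libraries, which spread from 2060 to 3266 in Syk. The same libraries hold the lowest Trem2 values, so the contrast with Trem2 under this omission follows in part from that choice.

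Plcg2 and Vav2 act downstream of SYK. Plcg2 encodes the phospholipase that releases calcium (chromosome 8: 117498291 to 117635142). It ranged from 6985 to 9133 normalized counts with IgG (median 8298) and from 7642 to 8765 with anti-CD22 (median 8208). Its means of 8249 ± 787 and 8185 ± 417 (SD, n = 7 each) were the closest of the 7 members, and the 95% interval of the log2 fold change was -0.14 to 0.12 (limma adjusted p = 0.975). The point estimate of -0.0070 changed sign with an equal total per library and with quantile normalization. Vav2 encodes an exchange factor that activates Rac (chromosome 2: 27262104 to 27427033). It ranged from 1173 to 2124 normalized counts with IgG (median 1585) and from 1273 to 2378 with anti-CD22 (median 1977). Anti-CD22 replicate 7 was low and the other 6 of 7 lay above the IgG median. The log2 fold change of Vav2 was 0.26 (SE 0.14, 95% interval -0.03 to 0.54, limma adjusted p = 0.433), or 0.35 without that replicate (adjusted p = 0.157). An antisense gene lies inside the Vav2 gene and shares 0 exon bases with it.

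Treml2 encodes a TREM family receptor that does not need TYROBP. It ranged from 124 to 257 normalized counts with IgG (median 158) and from 135 to 298 with anti-CD22 (median 193). High and low libraries occurred in both groups, with anti-CD22 replicates 1, 2 and 6 at 258, 276 and 298 and replicate 3 at 135. The log2 fold change was 0.20, with a 95% interval of -0.26 to 0.67 (limma adjusted p = 0.724). Recovered reads numbered 111 to 406 per library, and the coefficient of variation was 29.9% with IgG and 30.7% with anti-CD22.

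Across the 7 members 0 passed an adjusted p of 0.05 by limma, where 0.00859% of all genes tested did. At an unadjusted p under 0.05 there were 3 (Syk higher, Trem2 and Tyrobp lower), where 12.8% of all genes were. On the recovered reads of 13 libraries edgeR called 0 members, as it did of all genes (0%), and DESeq2 called 0 members where it called 0.524% of the genes it gave an adjusted p. DESeq2 gave none to Hcst and Treml2. Unadjusted, Syk alone was under 0.05 by edgeR (8.82% of all genes) and by DESeq2 (10%). These 13 libraries lack anti-CD22 replicate 3, 1 of the 3 with low Trem2. Without that library limma gave Trem2 a log2 fold change of -0.16. The members' median log2 fold change was -0.0070 with 4 of 7 below 0, beside a median of 0.0011 and 49.8% below 0 over all genes tested. Groups overlapped for all 7, and they did not overlap for 0.258% of genes. Receptor and adaptors (Trem2, Tyrobp, Hcst) were on the lower side and Syk, Vav2 and Treml2 on the higher side, a split that was not tested.

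**Figure D4:**
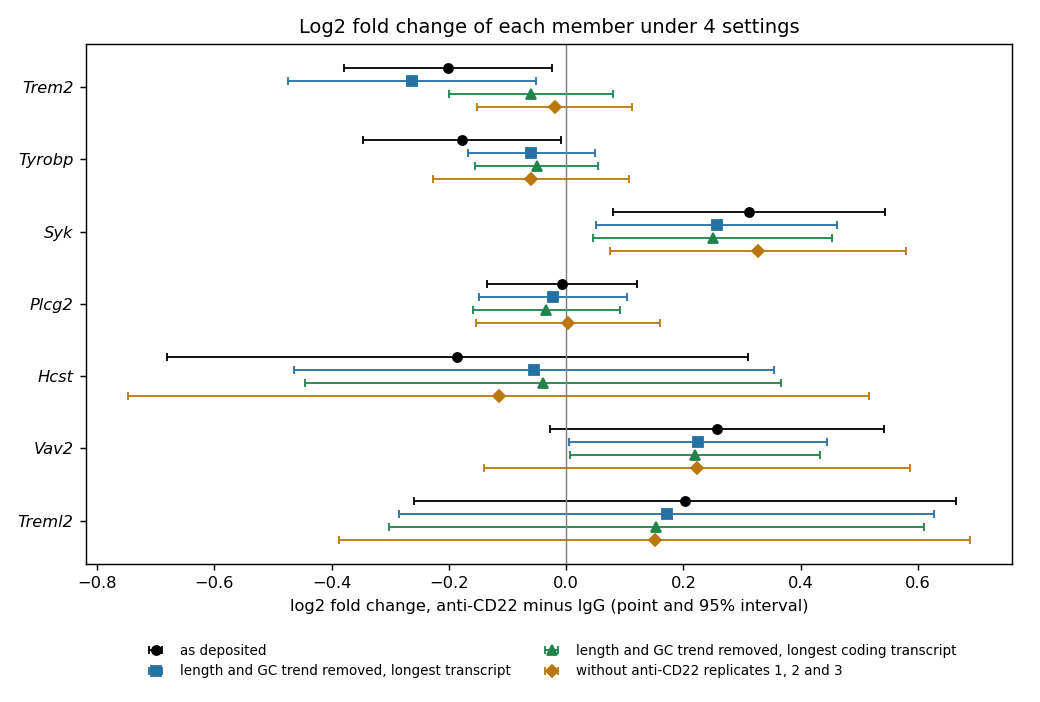
Log2 fold change (anti-CD22 minus IgG) of each member with its 95% interval under 4 settings. Trem2 moves from -0.20 as deposited to -0.06 with the trend removed by coding transcripts and -0.02 without anti-CD22 replicates 1, 2 and 3. With the trend removed by the longest transcript Trem2 stands at -0.26 (95% interval -0.47 to -0.05). Syk stays between 0.25 and 0.33.

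How the members varied together was examined over the 21 pairs. Over 14 libraries 0 of 21 pairs passed a Benjamini-Hochberg adjusted permutation p of 0.05. Tyrobp and its neighbour Hcst had the highest Pearson correlation of the 21 pairs, r = 0.69 (permutation p = 0.00647, adjusted p = 0.0925) and a Spearman correlation of 0.69 (permutation p = 0.00849, adjusted p = 0.0891). Their r was 0.63 without the 2 libraries farthest from the Tyrobp median, 0.74 within IgG and 0.66 within anti-CD22. After removal of the trend it was -0.23 by the longest transcript and -0.28 by coding transcripts, and both transcripts are short (597 and 442 bases). Over the 11 libraries without anti-CD22 replicates 1, 2 and 3, in contrast, it was 0.79 (permutation p = 0.00303, adjusted p = 0.0636). The part of the trend in this correlation was not tested further. Syk and Vav2 had r = 0.67 (permutation p = 0.00881, adjusted p = 0.0925) and a Spearman correlation of 0.76 (permutation p = 0.00272, adjusted p = 0.0571). Their r was 0.42 without the 2 libraries farthest from the Syk median, both of them IgG, and was 0.79 within IgG and 0.33 within anti-CD22.

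Over 14 libraries Trem2 and Tyrobp had r = 0.61 (permutation p = 0.0197, adjusted p = 0.138). Their Spearman correlation was 0.38 (permutation p = 0.183, adjusted p = 0.480). Their r was 0.77 within anti-CD22, -0.16 within IgG and 0.61 with the trend removed by coding transcripts. Trem2 and Syk had r = -0.42 over 14 libraries (permutation p = 0.134, adjusted p = 0.409). Since 3 libraries stand apart in Trem2, both correlations were also taken without them. Over the other 11 libraries Trem2 and Tyrobp had r = -0.13 (permutation p = 0.695, adjusted p = 0.768) and a Spearman correlation of -0.19 (permutation p = 0.576, adjusted p = 0.672). Receptor and adaptor thus showed no relation past the threshold among these libraries. Trem2 and Syk had r = -0.58 (permutation p = 0.0610, adjusted p = 0.320) and a Spearman correlation of -0.57 (permutation p = 0.0718, adjusted p = 0.302).

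The genes whose pattern over the 14 libraries was most like that of Trem2 were C1qb, Gipc1, Tsc22d4, C1qa and Psmd3, with likeness (Pearson's r) from 0.96 to 0.98. They are the highest of 11645 genes, so the values carry no test, and the 14 libraries include the 3 that stand apart in Trem2. Over the 11 libraries without anti-CD22 replicates 1, 2 and 3 the values ranged from 0.77 for C1qa to 0.91 for C1qb. With the trend removed by coding transcripts they ranged from 0.51 for Tsc22d4 to 0.94 for C1qb, and by the longest transcript from 0.43 for C1qa to 0.90 for Tsc22d4. C1qb and C1qa encode chains of complement C1q, made in the brain mainly by microglia. C1qb stood at 246766 ± 21705 normalized counts under IgG and 216368 ± 28302 under anti-CD22 (SD, n = 7 each). Its log2 fold change was -0.20 (limma adjusted p = 0.315), and that of C1qa was -0.17 (limma adjusted p = 0.349). Neither passed the threshold, and with the trend removed by coding transcripts they were -0.056 and -0.014. Tyrobp ranked 1242nd in likeness to Trem2 over the 14 libraries. The genes most like Treml2 were Fkbp14, D130040H23Rik, Intu, Sun2 and Zfp747, with likeness from 0.78 to 0.83.

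The wider pathway was taken as 13 lists with 138 genes, of which 117 were tested. By limma 0 passed an adjusted p of 0.05, and edgeR and DESeq2 also called 0. At an unadjusted p under 0.05 there were 20 (12 higher and 8 lower), or 17.1% beside the 12.8% of all genes, with 13 by edgeR beside 8.82% of all genes and 18 by DESeq2 beside 10%. Of the 117, 67 had a log2 fold change above 0 and 50 below (42.7%, beside 49.8% of all genes), with a median of 0.02. All p-values of single genes in the following are limma's, adjusted over all genes tested.

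Ligands of TREM2 were represented by 4 tested genes. Apoe, the main lipoprotein component made by glia, varied widely, from 4417 to 14453 normalized counts with IgG (median 6513) and from 3023 to 13835 with anti-CD22 (median 7779). Its log2 fold change of -0.03 changed sign with the trend removed and without some single libraries, and it was -0.43 without anti-CD22 replicates 1, 2 and 3. Lgals3, which encodes galectin-3, a reported TREM2 ligand, ranged from 167 to 728 with IgG (median 401) and from 186 to 336 with anti-CD22 (median 272). All 7 treated libraries lay below the IgG median, and the log2 fold change was -0.59 (SE 0.25, adjusted p = 0.349).

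Enzymes that shed and cleave TREM2 held 9 tested genes, 7 above 0 and 2 below. Adam10, a sheddase of TREM2, averaged 12453 ± 773 normalized counts under IgG and 14786 ± 2014 under anti-CD22 (SD, n = 7 each). Its log2 fold change was 0.24 (adjusted p = 0.238). It was 0.10 with the trend removed by coding transcripts. Psenen, a subunit of gamma-secretase, stood at -0.24 (adjusted p = 0.324), or -0.12 with that trend removed. Of the relatives in the Trem gene cluster 1 was tested, and Trem1, which did not reach the filter, had a median of 0 in both groups.

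Other receptors and adaptors that use the same motif gave no calls. The 7 tested receptors that signal through TYROBP or HCST had a median log2 fold change of 0.01, with Clec5a at 0.08 (adjusted p = 0.640), or -0.08 with the trend removed by coding transcripts. Fcer1g, the ITAM adaptor of Fc receptors, averaged 18467 ± 1934 normalized counts with IgG and 16298 ± 2157 with anti-CD22 (SD, n = 7 each). Its log2 fold change of -0.18 (adjusted p = 0.349) and its -0.08 with the trend removed by coding transcripts were close to those of Tyrobp, -0.18 and -0.05.

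Kinases and adaptors around SYK were mixed. Of 9 Src family kinases and their regulators 6 were above 0 and 3 below. Ptprc encodes CD45, the phosphatase that primes Src kinases, and stood at 0.24 (adjusted p = 0.229), with 7 of 7 treated libraries above the IgG median. Yes1, a Src family kinase, stood at 0.36 (adjusted p = 0.305), and Csk, which restrains these kinases, at -0.15 (adjusted p = 0.443). Among 12 Syk adaptors and Tec kinases, 6 were above 0 and 6 below. The Tec family kinase Btk stood at 0.22 (adjusted p = 0.328), the Ras activator Sos2 0.44 (adjusted p = 0.344) and the adaptor Lat2 -0.15 (adjusted p = 0.349). With the trend removed by coding transcripts Btk was 0.22 and Sos2 0.30. Ptprc was then 0.09, Yes1 0.21, Csk -0.06 and Lat2 -0.09.

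In the branches below SYK most tested genes had values above 0. The PI3 kinase and Akt list had 12 of 16 above 0 and a median log2 fold change of 0.09, which was -0.0073 with the length and GC trend removed. Pik3cg, a catalytic subunit of PI3 kinase, averaged 8510.4 ± 378 normalized counts under IgG and 10529.9 ± 1931 under anti-CD22 (SD, n = 7 each). Its log2 fold change was 0.29 (adjusted p = 0.250). It was 0.37 without anti-CD22 replicate 7 (adjusted p = 0.0455) and 0.15 with the trend removed by coding transcripts. Mtor, a growth kinase, stood at 0.54 (adjusted p = 0.324), with 7 of 7 treated libraries above the IgG median.

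Genes of actin and Rac control were also measured. The actin regulator Wipf1 stood at 0.46 (adjusted p = 0.305), the Rac activator Dock2 at 0.24 (adjusted p = 0.385) and Was, which drives actin branching, at -0.17 (adjusted p = 0.452). With the trend removed by coding transcripts they stood at 0.38, 0.11 and -0.09. The phospholipase, calcium and protein kinase C list had 15 of 20 above 0 and a median of 0.06. Its calcium channel gene Orai1 stood at -0.22 (adjusted p = 0.399) and the calcium-responsive factor Nfatc2 at 0.29 (adjusted p = 0.395). Orai1 was at 0.0035 without anti-CD22 replicates 1, 2 and 3.

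Brakes on SYK signalling included the 1 gene of the 117 whose groups did not overlap, beside 0.258% of all genes. Dok1, an adaptor that damps Ras signalling, ranged from 1522 to 1628 normalized counts with IgG (median 1575) and from 1098 to 1511 with anti-CD22 (median 1403). Every anti-CD22 library was thus under the lowest IgG library, and the log2 fold change was -0.25 (SE 0.077, adjusted p = 0.236). It was -0.13 with the trend removed by coding transcripts. Ubash3b, a phosphatase that acts on SYK, stood at 0.13 (adjusted p = 0.349), with 7 of 7 treated libraries above the IgG median, and at 0.0012 with that trend removed.

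Disease-associated microglia genes were divided by whether they are known to need TREM2. Of 6 genes that rise without TREM2, 6 were below 0, where 49.8% of all genes tested were. Their median log2 fold change was -0.05, or -0.07 after removal of the trend by the longest transcript. After that removal Ctsd stood at 0.04 and Apoe at 0.11, and the rest stayed below 0. The ferritin gene Fth1 stood at -0.16 (adjusted p = 0.357) and the cathepsin gene Ctsb at -0.05 (adjusted p = 0.670), which became -0.07 and -0.13 by coding transcripts. Of 11 genes that need TREM2, 10 were below 0, with a median of -0.16, and the median was -0.19 after the same removal. The chemokine gene Ccl6 stood at -0.32 (adjusted p = 0.328), the tetraspanin gene Cd9 at -0.16 (adjusted p = 0.395) and the lipase gene Lpl at -0.44 (adjusted p = 0.407), which became -0.29, -0.12 and -0.54 by coding transcripts. None of these genes passed limma's threshold, and the difference between these lists was not tested.

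**Figure D5:**
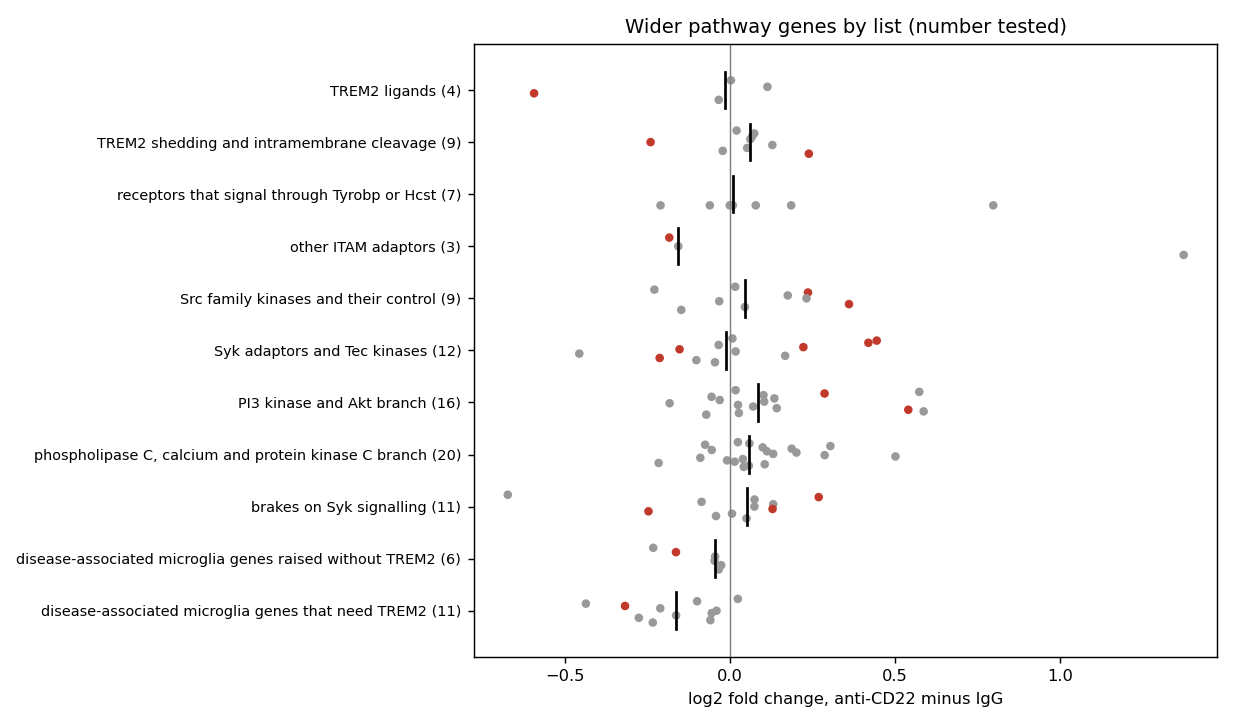
Log2 fold changes (anti-CD22 minus IgG) of the tested genes of the lists named on the axis, with red for an unadjusted p under 0.05 and a black line at the list's median. The genes that need TREM2 in disease-associated microglia lie mostly below 0 (10 of 11), and those of the PI3 kinase and Akt branch mostly above (12 of 16). Over all genes tested 49.8% were below 0.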

How the data were processed

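Gene expression of 14 microglia libraries was measured by RNA sequencing. Per the submitters' processing notes and design text, paired reads of 100 bp went through bcl2fastq, the aligner STAR with mm10, counting in SummarizedExperiment and normalization in DESeq2. Their versions, the annotation and the strand setting were not given in the sources used here. Values as deposited are a signal, normalized counts, in which the authors divided each library's counts by 1 size factor. Left out were 27 entries whose names had become dates. Members and gene lists were chosen with earlier results of these data known.

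The test was limma 3.58.1 in R 4.3.3 on log2 values (pseudocount 1) of the 11646 genes whose mean reached 10. It used a mean-variance trend, two-sided p-values and Benjamini-Hochberg adjustment over all genes tested. Fold changes are on this log2 scale, which understates those of low genes. Whole reads were recovered for 13 libraries, where 100% of values were whole multiples of 1 step within 0.1 reads, and tested with edgeR 4.0.16 and DESeq2 1.42.0. Anti-CD22 replicate 3, whose step of 1.009 was the closest to 1, was left out of both. Its values were also 100% whole multiples. Replicates of a group differed beyond counting error in all pairs of the 13 libraries with recovered reads (lowest chi-square per gene 18.2).

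Transcript length and GC content came from GENCODE vM21 (GRCm38, the assembly of mm10), known for 96.4% of tested genes, and their trend was removed per library with natural splines. The use of protein-coding transcripts and the omission of anti-CD22 replicates 1, 2 and 3 were added after seeing the data. The rule for named genes took the members, Cd22, the 3 genes of each list with the smallest p and the 5 genes most like Trem2 and Treml2. Not all of these are printed, and Dok1 also as the gene whose groups did not overlap. Correlations used 100000 permutations, two-sided. Fits were tested on simulated data. Figures used matplotlib 3.10.9.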

Additional observations from a re-analysis of the deposited data

Results flagged for a closer look

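A total of 4 values stood apart within their group of 7 libraries by Dixon's test at 95%, among 80 groups examined for 40 genes, where chance gives about 1 in 20. None belongs to a pathway member. Psenen, the gamma-secretase subunit, stood at 2045 normalized counts in IgG replicate 7, beside 1490.0 to 1684 in the other IgG libraries. Csk, the restraining kinase, stood at 2702 in IgG replicate 1, beside 3261 to 3578. Ctsb stood at 154626 in anti-CD22 replicate 7, beside 133171 to 141142. The chemokine gene Ccl6 stood at 10633 in IgG replicate 5, beside 4880.2 to 7212, and its log2 fold change was -0.20 without that library.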

How the results depend on the processing

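No member passed the threshold under any of the 31 alternatives, and 6 of 7 kept their direction in all of them. The ranges of log2 fold change were -0.26 to -0.02 for Trem2, -0.22 to -0.05 for Tyrobp, 0.25 to 0.38 for Syk and 0.18 to 0.35 for Vav2, with lowest adjusted p of 0.166, 0.157, 0.152 and 0.157. Plcg2 changed sign at the same total per library (0.0053), by quantile normalization (0.012), without anti-CD22 replicates 1, 2 and 3 (0.0035) and on leaving out single libraries (-0.046 to 0.018). Cd22 turned to -0.032 with array weights and -0.010 with the trend removed by coding transcripts, with -0.063 to 0.079 on leaving out single libraries. Apoe turned to 0.060 with array weights and 0.11 with the trend removed by either kind of transcript, the block included, with -0.18 to 0.19 on leaving out single libraries. Clec5a turned to -0.044 with the trend removed, with or without the block, and -0.077 by coding transcripts. Orai1 turned to 0.0035 without the 3 libraries and Ctsb to 0.010 by quantile normalization, and the cause of these turns was not tested.

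Over all genes the count of 1 past the threshold became 0 without a mean-variance trend, by edgeR, with either removal of the trend and without the 3 libraries. It became 8 with array weights, 35 by DESeq2, 4 at a threshold of 0.10 and 0 to 43 on leaving out single libraries, the highest without anti-CD22 replicate 7. Wider pathway genes past the threshold numbered 0 to 1 on leaving out single libraries, the 1 being Pik3cg without that replicate. Same-numbered libraries correlated from -0.15 to 0.16 in their deviations, and 2 of 7 IgG libraries matched their own number best. Levels alone cannot show how libraries were handled, so whether numbers pair samples was not settled. With the replicate block 2 genes passed, and no member. Hcst and Treml2 had the fewest reads, and their counting error of at most 11.4% and 9.49% is under their spread between libraries. Over all annotated exons, per-length levels of Syk, Hcst and Vav2 averaged 263, 157 and 257 normalized counts per kilobase in the 14 libraries, with Syk at 235 and Vav2 at 234 under IgG alone.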
